A study of Mus musculus with 2 samples.

Results

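The genes described here are 10 components of bone morphogenetic protein (BMP) signalling, chosen by name out of the 32245 gene columns of the deposited tables. Earlier results of these data were known when they were chosen. They are the ligands Bmp2, Bmp4, Bmp6, Gdf5 and Gdf10, the type I receptors Bmpr1a and Bmpr1b, the type II receptor Bmpr2, and the secreted antagonists Grem1 and Chrdl1. Their levels were read in 6 classes of cells dissociated from the knee joints of female C57BL/6 mice and profiled by droplet 3′ single-cell RNA sequencing. Mice of the control library were Stat3fl/fl, with floxed Stat3 and no Cre. The Stat3KO mice were Acan-Cre+/Cre;Stat3fl/fl and carry the same floxed alleles and a tamoxifen-dependent Cre (CreERT2) at the aggrecan locus Acan, used in heterozygous form. The study used tamoxifen at postnatal days 2 and 3 for deletion with this driver, and describes the sequenced cells as from 1 month old mice. Cre was therefore driven by a cartilage gene, and the osteoblast, tendon, synovial, fibroblast and marrow stromal cells described below come from the same animals but are not the cells the driver is named for. Live cells without CD31, Ter119 and CD45 were sorted, and each library pooled 2 to 3 mice. There is 1 library per genotype, so the spread between mice was not measured, no difference below has a replicate check and no test was run. Every genotype comparison therefore describes these 2 libraries.

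BMPs are secreted dimers of the TGF-beta superfamily that bring together type I and type II serine/threonine kinase receptors on the cell surface. The type II receptor phosphorylates the type I receptor, which in turn phosphorylates SMAD1, SMAD5 and SMAD9, and these enter the nucleus with SMAD4 to act on target genes such as the Id family. Extracellular antagonists such as Gremlin 1, Chordin-like 1 and Noggin bind the ligands and keep them from their receptors. In the skeleton the pathway is known for inducing cartilage and bone, for joint formation through GDF5 and its receptor BMPR1B, and for promoting chondrocyte maturation in the growth plate.

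Promoter sequence was given by RefSeq (assembly GRCm38.p6) for 7 of the 10 genes in 9 windows, and Bmp2, Gdf5 and Chrdl1 had no entry. On the same build Grem1 lies at chr2:113746164-113758646 (minus strand), Chrdl1 at chrX:143285674-143394262 (minus), Bmp4 at chr14:46383520-46390669 (minus) and Bmp6 at chr13:38345107-38500302 (plus) by GENCODE M21. The 250 bases before the RefSeq start site are shown for Bmp4, Bmp6 and Grem1, because these are the genes with an entry whose highest level was in the marrow stromal class in both libraries, as described below. The Bmp6 window lies inside the GENCODE span of the gene, which begins further upstream. Capitals mark GGCGCC, the GC-rich element bound by SMAD1 and SMAD5.
Grem1, chr2:113758649-113758898, minus strand: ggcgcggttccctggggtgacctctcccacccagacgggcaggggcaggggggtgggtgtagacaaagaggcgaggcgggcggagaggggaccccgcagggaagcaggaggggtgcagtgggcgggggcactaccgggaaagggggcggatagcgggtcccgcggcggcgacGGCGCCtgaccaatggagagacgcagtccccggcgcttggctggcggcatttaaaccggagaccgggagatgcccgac
Bmp4, chr14:46390670-46390919, minus strand: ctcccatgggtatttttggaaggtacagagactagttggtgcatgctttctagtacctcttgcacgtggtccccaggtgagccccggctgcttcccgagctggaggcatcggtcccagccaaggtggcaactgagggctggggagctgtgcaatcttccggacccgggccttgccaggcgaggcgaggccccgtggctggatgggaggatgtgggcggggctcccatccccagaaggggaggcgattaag
Bmp6, chr13:38345466-38345715, plus strand: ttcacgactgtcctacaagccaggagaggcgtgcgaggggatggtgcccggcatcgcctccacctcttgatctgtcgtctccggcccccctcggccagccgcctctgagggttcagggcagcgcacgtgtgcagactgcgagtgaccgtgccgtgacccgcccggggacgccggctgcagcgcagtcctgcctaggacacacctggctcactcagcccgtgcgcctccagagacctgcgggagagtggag
The Grem1 window held GGCGCC, which starts 78 bases before the start site, and the Bmp4 and Bmp6 windows did not hold it. The Bmpr2 and Bmpr1a windows held it as well, against 9.59% of 32851 promoters of the same length. TTCNNNGAA, the palindrome bound by STAT dimers, was in none of the 9 windows and in 7.02% of all promoters. Both motifs read the same on either strand and do not overlap in these windows, and a match or its absence describes only these letters in this window.

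There were 4903 control cells, at a median of 4344 estimated UMIs (unique molecular identifiers) per cell, and 1340 Stat3KO cells, at a median of 3743. They shared 2 cell barcodes. Chondrocytes were the cells marked by the authors, 501 in the control and 332 in the Stat3KO library, all of them above 0 for Sox9 and Col2a1. The other classes were gated on cells above 0 for at least 2 of 5 markers of a type and for more markers of it than of any other type. Unmarked cells above 0 for both Sox9 and Col2a1 were barred from these gates, 512 in the control and 3 in the Stat3KO library. They held 143 and 92 osteoblast-gated, 222 and 34 tendon-gated, 253 and 66 synovial lining-gated, 248 and 138 fibroblast-gated, and 153 and 116 marrow stromal-gated cells. Genes that the gates did not use followed the labels, with 1 exception. Comp was 3.66- and 4.02-fold above the other 5 classes in chondrocytes and Lpl 73- and 62.3-fold in marrow stromal cells. The exception was the tendon gene Tnc, at 1.25- and 1.06-fold in tendon-gated cells. Acan was 53.5- and 50.6-fold in chondrocytes, but it is a chondrocyte marker that competed in the gates of the other classes. Its fold is therefore partly built in. Stat3 itself was at 142 CPM (counts per 1000000 of the summed cells) in control and 103 CPM in Stat3KO chondrocytes, and 3′ counting does not show whether a transcript contains the floxed exons. In the other 5 classes Acan was above 0 in 6.85% (fibroblast-gated) to 38.3% (tendon-gated) of control cells. Whether Cre acted in these classes was not tested. The libraries also differed in ways that touch every class. No marked chondrocyte held a globin UMI, whereas 512 further control cells above 0 for Sox9 and Col2a1 were left unmarked and 100% of them did, against 3 such Stat3KO cells. In the other classes 48.3% to 70.2% of control cells held a globin UMI, against 0.725% to 7.76% of Stat3KO cells. Cells above 5% mitochondrial made up 3.99% to 21% of the control and 6.52% to 45.7% of the Stat3KO cells of a class, and the median Stat3KO cell was the deeper in each class. The part of these differences in the results below was not tested, and values for cells within the limits are given for some of the results that they change. Each interval given with a share is the exact 95% Clopper-Pearson range and covers counting error only. Where no cell held a gene, the limit given is 3 counts over the number of cells, which bounds cells with a UMI and not cells that express the gene.

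Ligands, receptors and antagonists differed in where they were detected. A ligand transcript was found in 60.1% of control and 66.4% of Stat3KO marrow stromal cells and in 23.1% and 34.8% of osteoblast-gated cells, the highest and lowest shares of the 6 classes. A receptor transcript was found in 54.5% to 65.7% of control cells in every class, and in 35.3% (tendon-gated) to 72.7% (synovial lining) of Stat3KO cells. An antagonist transcript was found in 70.6% and 59.5% of marrow stromal cells and in 30.7% and 31.9% of chondrocytes, but in 1.58% and 1.52% of synovial lining cells. Thinned, the share of control chondrocytes was 8.98%, against 9.05% of control tendon-gated and 7.38% of control fibroblast-gated cells. As a measure of free RNA, control cells gated on erythroid markers held a ligand in 2.31%, a receptor in 6.17% and an antagonist in 0.865% of cells at a median of 5817 estimated UMIs. The antagonist shares of synovial lining cells are therefore close to this background.

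**Figure D1:**
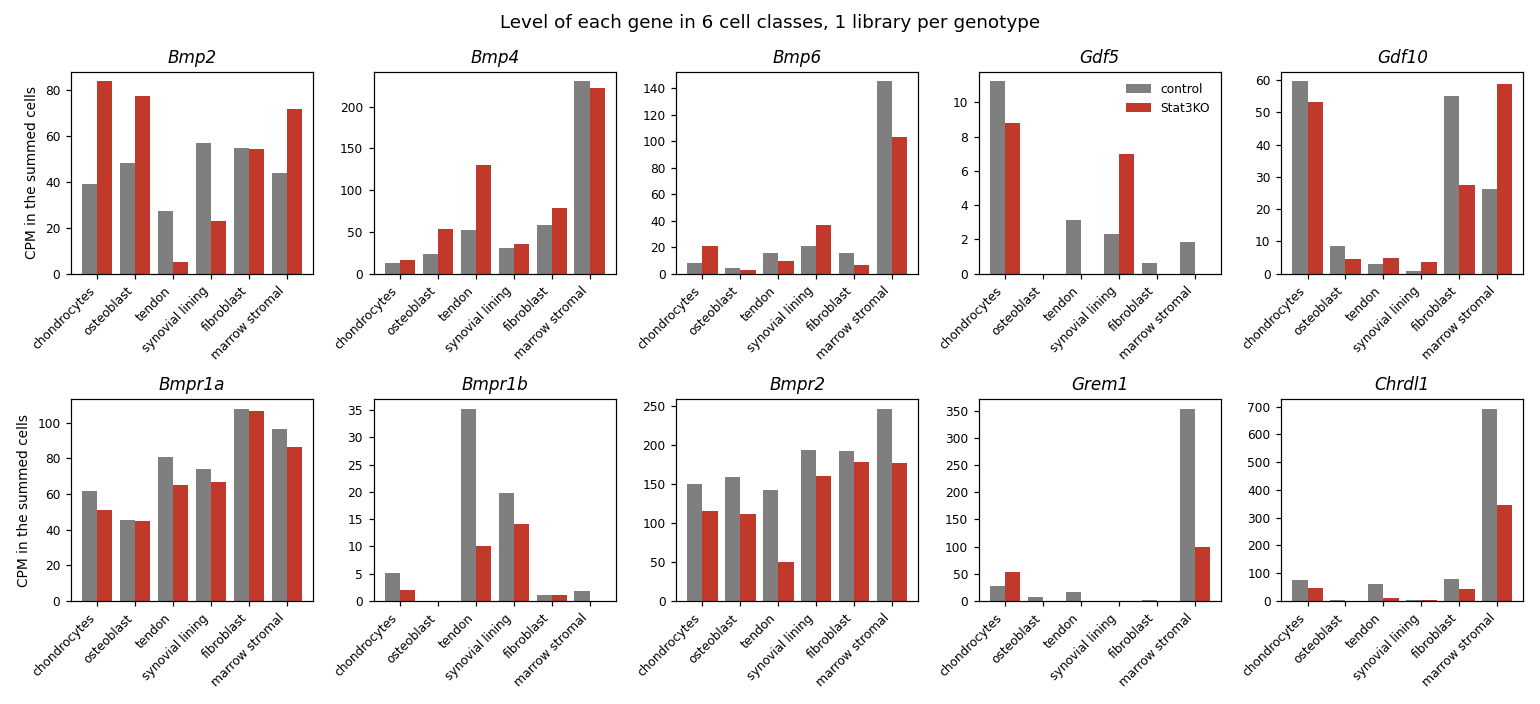
Level of each gene, as CPM of the summed cells (vertical axis, a scale per gene), in the 6 cell classes of the control (grey) and Stat3KO (red) libraries; each bar is 1 library and there is no error bar. The bars of Bmp4, Bmp6, Grem1 and Chrdl1 are highest in marrow stromal cells in both libraries, those of Bmpr1b in tendon or synovial lining cells, and those of Bmpr1a and Bmpr2 stand in all classes.

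Among the ligands, Bmp4, which signals in limb and joint development, was highest in marrow stromal cells, at 230 CPM in control and 222 CPM in Stat3KO cells. It was above 0 in 39.2% (31.4% to 47.4%) and 45.7% (36.4% to 55.2%) of these cells. The next class in the control was fibroblast-gated cells at 58.7 CPM, in which 16.1% of cells held it (11.8% to 21.3%), so these intervals do not overlap. In the Stat3KO library tendon-gated cells came next at 130 CPM, in 35.3% of cells (19.7% to 53.5%), which overlaps. Chondrocytes were lowest, at 12.7 and 16.4 CPM. Bmp6, a ligand also known for controlling hepcidin, had the same leading class. It was at 145 and 103 CPM in marrow stromal cells, 12- and 5.79-fold the level of the other 5 classes together, with 33.3% (25.9% to 41.4%) and 37.1% (28.3% to 46.5%) of cells above 0. Synovial lining cells followed at 21.2 and 36.8 CPM, with an interval that overlaps that of marrow stromal cells in the Stat3KO library but not in the control, and osteoblast-gated cells were lowest at 4.54 and 2.93 CPM from 3 and 2 cells. In the control 31 of the 153 marrow stromal cells held both Bmp4 and Bmp6, and in the Stat3KO library 29 of 116 did.

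Bmp2, an inducer of bone and cartilage, had no such leading class. In the control it ranged from 27.3 CPM in tendon-gated to 56.9 CPM in synovial lining cells, and each neighbouring pair in the order of 5 classes from synovial lining to chondrocytes had overlapping intervals. In the Stat3KO library the order was different, with chondrocytes first at 83.7 CPM and synovial lining and tendon-gated cells last at 22.8 and 4.97 CPM. Gdf5, the ligand that marks the joint interzone, was found in 4.19% of control (2.61% to 6.34%) and 5.42% of Stat3KO chondrocytes (3.24% to 8.43%), at 11.2 and 8.79 CPM. In synovial lining cells it was in 3 of 253 control cells (1.19%, 0.245% to 3.43%) at 2.29 CPM and in 4 of 66 Stat3KO cells (6.06%, 1.68% to 14.8%) at 6.97 CPM, a share close to that of Stat3KO chondrocytes. The remaining 4 classes held it in 3 control cells and 0 Stat3KO cells, with 0 of 143 control osteoblast-gated cells, which allows a share of up to 2.1%. Gdf10, also called BMP3b, was at 59.6 and 53.1 CPM in chondrocytes, in 21.2% (17.7% to 25%) and 22.6% (18.2% to 27.5%) of cells. It was at 55.2 and 27.6 CPM in fibroblast-gated cells and at 26.2 and 58.7 CPM in marrow stromal cells, so the leading class differed between the libraries. It was scarce in tendon-gated cells, at 3.07 and 5 CPM, and in synovial lining cells, at 0.725 and 3.51 CPM.

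The receptors differed in how many classes held them. Bmpr2, the type II receptor, was above 0 in 43.7% to 52.7% of control cells of each class, with levels between 143 CPM in tendon-gated and 247 CPM in marrow stromal cells. Bmpr1a, the type I receptor of most cartilage signalling, was at 45.3 CPM in osteoblast-gated to 108 CPM in fibroblast-gated control cells, and every neighbouring pair in its order overlapped in both libraries. Bmpr1b, the type I receptor that GDF5 prefers, was detected mainly in tendon-gated and synovial lining cells. It was at 35.2 CPM in control tendon-gated cells, in 12.6% of cells (8.55% to 17.7%), and at 19.8 CPM in synovial lining cells, in 7.91% (4.9% to 11.9%). In chondrocytes it was at 5.1 CPM, in 2.79% of cells (1.54% to 4.64%). It was found in 0 osteoblast-gated cells of either library, which allows shares of up to 2.1% and 3.26%, and in 1 control cell each of the fibroblast and marrow stromal classes. In the Stat3KO library the same classes held it, at 14.1 CPM in synovial lining, 10 CPM in tendon-gated and 1.95 CPM in chondrocyte cells.

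Both antagonists were marrow stromal genes first. Grem1, which binds BMP2, BMP4 and BMP7, was at 353 CPM in control marrow stromal cells, 22.1-fold the other 5 classes together, and at 99.5 CPM in the Stat3KO cells, 3.29-fold. Chondrocytes came second at 27.1 and 52.8 CPM. Synovial lining cells held it in 1 of 253 control and 0 of 66 Stat3KO cells, and fibroblast-gated cells in 1 cell of each library. Chrdl1, a chordin-type BMP antagonist, was at 693 and 345 CPM in marrow stromal cells, 12.8- and 9.91-fold the other 5 classes. It was also present in fibroblast-gated cells (77.5 and 41.9 CPM), chondrocytes (75.7 and 47.2 CPM) and control tendon-gated cells (61.8 CPM), and was at 3.48 CPM or less in osteoblast-gated and synovial lining cells. Of the 153 control marrow stromal cells, 65 held both antagonists (42.5%, 34.5% to 50.7%), and of the 116 Stat3KO cells 24 did (20.7%, 13.7% to 29.2%). Of the 501 control chondrocytes Grem1 was in 23 and Chrdl1 in 136, and 5 cells held both.

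Among the 3 classes with more than 100 cells in both libraries, the largest genotype ratio of a member was that of the antagonist Grem1 in marrow stromal cells. Ratios are log2((Stat3KO CPM + 1)/(control CPM + 1)), and a gene was called past 2-fold when the ratio was at least 1 in size and the gene had at least 10 estimated UMIs in at least 5 cells of either library. Grem1 was at 353 CPM in control and 99.5 CPM in Stat3KO cells, a log2 ratio of -1.82. It was above 0 in 80 of 153 control cells (52.3%, 44.1% to 60.4%) and 38 of 116 Stat3KO cells (32.8%, 24.3% to 42.1%). Chrdl1 was at 693 and 345 CPM, a log2 ratio of -1.005, with 60.8% (52.6% to 68.6%) and 47.4% (38.1% to 56.9%) of cells above 0. The Stat3KO cells were the deeper, at a median of 4894 against 2832 estimated UMIs. With each cell thinned to 1000 UMIs the shares were 28.5% (21.3% to 36.6%) and 11% (5.82% to 18.4%) for Grem1 and 43.1% (34.8% to 51.6%) and 22% (14.6% to 31%) for Chrdl1, intervals that do not overlap. In cells that held Chrdl1 the mean was 3.64 and 3.83 estimated UMIs, and in those that held Grem1 it was 2.16 and 1.6.

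Gdf10 went the other way in marrow stromal cells, at 26.2 CPM in control and 58.7 CPM in Stat3KO cells, a log2 ratio of 1.13. It was found in 5 of 153 control cells (3.27%, 1.07% to 7.46%), 3 of which held 85.2% of its UMIs, and in 21 of 116 Stat3KO cells (18.1%, 11.6% to 26.3%). Without the 3 cells of each library richest in it the ratio was 3.11, whereas it was 0.64 without cells with at least 2 markers of another type and 0.92 with a pseudocount of 10 CPM. Thinned, the shares were 2.78% (0.762% to 6.96%) and 6.42% (2.62% to 12.8%). Bmp4 and Bmp6 were not past 2-fold there, at log2 ratios of -0.05 and -0.49, nor were Bmp2, Bmpr1a and Bmpr2, at 0.70, -0.16 and -0.47. In all, 3 of the 8 members above the floor were past 2-fold in this class, against 20.3% of 7566 genes. Cells above 5% mitochondrial made up 4.58% of control and 37.1% of Stat3KO marrow stromal cells. In cells of at most 5% the ratios were -2.04 for Grem1, -0.92 for Chrdl1 and 1.16 for Gdf10. In cells without a globin UMI, 54 and 107 cells, they were -1.82, -1.01 and 1.92. The summed level of the 5 marrow stromal markers was 15675 and 12649 CPM, with 5 of 5 markers above 0 in both libraries, and that of the 5 mural markers was 291 and 489 CPM, with Kcnj8 at 0 in the Stat3KO cells. The lists of other types that were lower in the Stat3KO cells included osteoblast at 1029 and 452 CPM, with Dmp1 at 0 in control cells, tendon at 177 and 21.15 CPM, with Scx and Kera at 0 in Stat3KO cells, and erythroid at 111 and 28.6 CPM, with Alas2 and Slc4a1 at 0 in Stat3KO cells. Their part in these differences was not tested.

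In chondrocytes, the cells that the Cre driver is named for, 2 ligands were higher in the Stat3KO library and the receptors were level or lower. Bmp2 was at 39.1 CPM in control and 83.7 CPM in Stat3KO cells, a log2 ratio of 1.08. It was above 0 in 16.2% (13.1% to 19.7%) and 30.7% (25.8% to 36%) of cells, and 18 and 47 cells held at least 2 UMIs of it. Bmp6 was at 8.27 and 21.13 CPM, a log2 ratio of 1.25, in 4.79% (3.09% to 7.04%) and 14.5% (10.9% to 18.7%) of cells. Bmpr1b, with 14 and 6 cells above 0, was at 5.1 and 1.95 CPM, a log2 ratio of -1.05, or -0.93 in cells of at most 5% mitochondrial. The Stat3KO chondrocytes were deeper, at a median of 8595 against 5876 estimated UMIs. In cells thinned to 1000 UMIs the shares were 4.49% (2.83% to 6.72%) and 6.25% (3.86% to 9.49%) for Bmp2 and 1.43% (0.576% to 2.92%) and 3.12% (1.51% to 5.67%) for Bmp6, and both pairs of intervals overlap. The log2 ratio from the thinned cells was 0.60 for Bmp2 and 1.03 for Bmp6.

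The other members of chondrocytes were not past 2-fold. Grem1 was nearest, at 27.1 and 52.8 CPM and a log2 ratio of 0.94, or 1.39 without the 3 richest cells of each library, followed by Chrdl1 at 75.7 and 47.2 CPM and -0.67. Bmpr2 was at 151 and 116 CPM (log2 ratio -0.38), Bmpr1a at 61.7 and 50.7 CPM (-0.28), Bmp4 at 12.7 and 16.4 CPM (0.35), Gdf5 at 11.2 and 8.79 CPM (-0.32) and Gdf10 at 59.6 and 53.1 CPM (-0.16). All 10 members were above the floor and 3 were past 2-fold, against 13.9% of 11198 genes, and their median log2 ratio was -0.22 against -0.17 over all genes tested. Markers of other cells moved with the library. The 5 osteoblast markers summed to 834 CPM in control and 4015 CPM in Stat3KO chondrocytes, and the 5 marrow stromal markers to 103 and 340 CPM, with 5 of 5 above 0 in each, and their part in the ratios was not tested. Without cells above 0 for at least 2 markers of another type, which left 370 and 218 cells, the log2 ratio was 1.56 for Bmp2, 1.502 for Bmp6 and -1.15 for Chrdl1, but -0.13 for Bmpr1b. With all cells above 0 for Sox9 and Col2a1 in place of the marked cells, 1013 and 335, it was 0.88 for Bmp2, 1.14 for Bmp6 and -0.65 for Bmpr1b, and only Bmp6 of the 10 was past 2-fold.

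Chondrocytes are not uniform, and the members separated along their subtypes. Marked cells were called articular-type or prehypertrophic and hypertrophic-type when at least 2 of 5 markers of that kind, and more than of the other kind, were above 0. This gave 127 and 111 articular-type and 119 and 77 prehypertrophic and hypertrophic-type cells, and left 255 and 144 others. Grem1 was a gene of articular-type cells, at 121 CPM in control and 114 CPM in Stat3KO cells, in 14.2% (8.62% to 21.5%) and 19.8% (12.9% to 28.5%) of cells. In prehypertrophic and hypertrophic-type cells it was in 1 of 119 and 2 of 77 cells. Bmp4 was also highest in control articular-type cells, at 52.1 CPM against 1.22 CPM in prehypertrophic and hypertrophic-type cells. Bmpr1b was found in 7 and 2 articular-type cells and in 0 of 119 and 0 of 77 prehypertrophic and hypertrophic-type cells, which allows shares of up to 2.52% and 3.9%. These last cells were the deepest, at medians of 8166 and 12261 estimated UMIs.

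Gdf10 and Chrdl1 had the reverse distribution in the control library. Gdf10 was in 45.4% (36.2% to 54.8%) of control prehypertrophic and hypertrophic-type cells and in 14.2% (8.62% to 21.5%) of articular-type cells. Chrdl1 was in 54.6% (45.2% to 63.8%) and 10.2% (5.56% to 16.9%), respectively. In the Stat3KO library Chrdl1 kept this order, with 41.6% (30.4% to 53.4%) and 11.7% (6.39% to 19.2%) of cells and 59.9 and 17.9 CPM. Gdf10 was there in 35.1% (24.5% to 46.8%) and 18.9% (12.1% to 27.5%) of cells but at 53.7 and 57.8 CPM, and thinned in 3.95% and 4.55% of cells, so no order is read for it in that library. Prehypertrophic and hypertrophic-type cells were the deeper in both libraries. Thinned shares in the control were 10.1% (5.32% to 16.9%) and 4.76% (1.77% to 10.1%) for Gdf10 and 9.24% (4.7% to 15.9%) and 2.38% (0.494% to 6.8%) for Chrdl1, which overlap. Of the 501 control chondrocytes 40 held both Gdf10 and Chrdl1, and of the 332 Stat3KO chondrocytes 29 did. Bmpr2 was in 62.2% (52.8% to 70.9%) of control prehypertrophic and hypertrophic-type and 48% (39.1% to 57.1%) of articular-type cells, at 108 and 178 CPM, so its share and its level ran in opposite orders and no order is read.

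**Figure D2:**
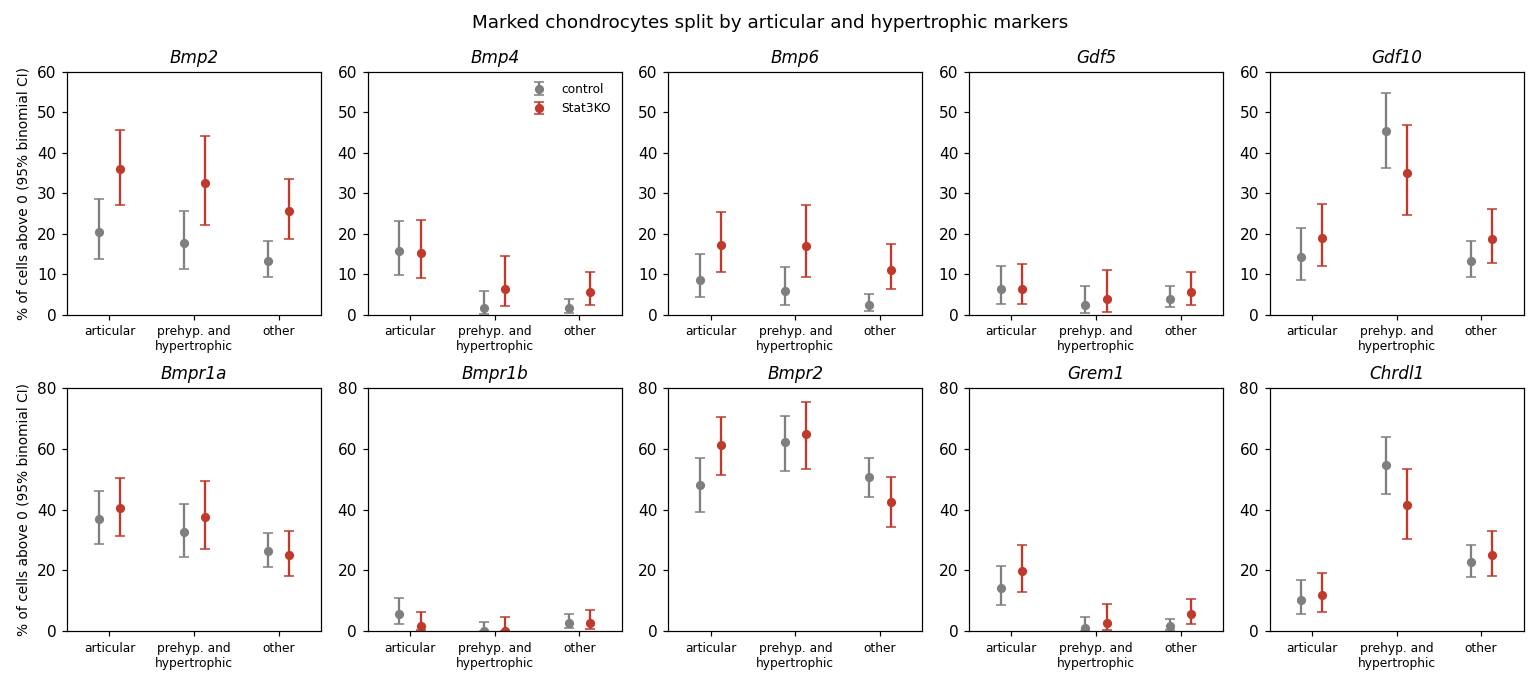
Share of marked chondrocytes above 0 for each gene (vertical axis, percent) in articular-type, prehypertrophic and hypertrophic-type and other cells of the control (grey) and Stat3KO (red) libraries; points are 1 library and bars are exact 95% binomial intervals, which cover counting error only. The shares of Chrdl1 and Gdf10, not thinned, peak in prehypertrophic and hypertrophic-type cells, at 54.6% and 45.4% in the control, and that of Grem1 in articular-type cells. Prehypertrophic and hypertrophic-type cells are the deepest, and no order is read for Gdf10 in the Stat3KO library.

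By subtype, the genotype values of Bmp2 differed in size. Bmp2 was at 25.6 CPM in control and 97.7 CPM in Stat3KO cells in the other marked cells, and 3 of these 144 Stat3KO cells held 49.6% of its UMIs. It was at 62.6 and 87.7 CPM in articular-type and at 43.3 and 63.1 CPM in prehypertrophic and hypertrophic-type cells. It was above 0 in more Stat3KO than control cells of all 3 subtypes, 36% against 20.5%, 32.5% against 17.6%, and 25.7% against 13.3%, but the Stat3KO cells were also the deeper in each. Thinned to 1000 UMIs the shares were 11.8% against 10.3%, 5.26% against 4.2%, and 2.24% against 1.63%, with overlapping intervals. The CPM of Bmp6 was higher in the Stat3KO library in all 3 as well, at 19.2 and 24.9, 7.31 and 19.9, and 4.04 and 18.8 CPM. Its thinned shares were 3.17% in control and 2.73% in Stat3KO articular-type cells, the reverse order. They were 0% and 2.63% in prehypertrophic and hypertrophic-type and 1.22% and 3.73% in other marked cells, and the intervals of each pair overlap. Grem1 differed little in articular-type cells, where most of it lay, and was at 3.21 and 36.8 CPM in the other marked cells, from 4 and 8 cells, 3 of which held 65.9% of the UMIs in the Stat3KO library. Bmp4 was lower in Stat3KO articular-type cells, at 52.1 and 24.4 CPM, with like shares of 15.7% and 15.3% of cells. There 3 control cells held 43.3% of its UMIs, and the thinned shares were 2.38% (0.494% to 6.8%) and 5.45% (2.03% to 11.5%), which overlap. In the other marked cells Bmp4 was higher in the Stat3KO library, at 3.02 and 17 CPM from 4 and 8 cells. Chrdl1 was at 127 and 59.9 CPM and Gdf10 at 99.7 and 53.7 CPM in prehypertrophic and hypertrophic-type cells. The difference of a gene between subtypes was not tested.

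In the other 4 classes single members were past 2-fold, and most rested on few cells. In osteoblast-gated cells 4 members were above the floor and 1 was past 2-fold, against 20.8% of 6833 genes. This was Bmp4, at 24 CPM from 12 cells in the control and 54.1 CPM from 15 cells in the Stat3KO library, a log2 ratio of 1.14. Without the 3 richest cells of each library it was 0.86. In synovial lining cells 1 of 6 was past 2-fold, against 16% of 8393 genes. This was Bmp2, at 56.9 and 22.8 CPM and a log2 ratio of -1.29, with 17.8% (13.3% to 23.1%) and 13.6% (6.43% to 24.3%) of cells above 0. Bmp6 was at 21.2 and 36.8 CPM there, a log2 ratio of 0.77, in 9.88% (6.5% to 14.2%) and 24.2% (14.5% to 36.4%) of cells. The Stat3KO cells were the deeper, at a median of 8014 against 4101 estimated UMIs, and thinned the shares were 2.05% (0.669% to 4.72%) and 3.12% (0.381% to 10.8%), which overlap. In fibroblast-gated cells 1 of 7 was past 2-fold, against 18.4% of 8521 genes. This was Bmp6, at 15.8 CPM from 11 control cells and 6.64 CPM from 5 Stat3KO cells, a log2 ratio of -1.14. Gdf10, at 55.2 and 27.6 CPM, and Chrdl1, at 77.5 and 41.9 CPM, were just short of it with log2 ratios of -0.97 and -0.87. In fibroblast-gated cells of at most 5% mitochondrial Gdf10 was at -1.11, and in those without a globin UMI Gdf10 was at -1.71 and Chrdl1 at -1.06. Marker sums moved in these classes too: the osteoblast list was at 21261 and 54563 CPM in osteoblast-gated cells, and the marrow stromal list at 383 and 833 CPM in fibroblast-gated and at 225 and 78.6 CPM in synovial lining cells. Their part in the ratios was not tested.

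Tendon-gated cells had the most members past 2-fold and the fewest cells. Of 8 members above the floor 5 were past 2-fold, against 26.1% of 8037 genes, but the Stat3KO side was 34 cells and 199417 estimated UMIs. Chrdl1 was in 42 of 222 control cells (18.9%, 14% to 24.7%) but only 2 of 34 Stat3KO cells (5.88%, 0.72% to 19.7%), at 61.8 and 9.84 CPM and a log2 ratio of -2.53. Bmp2 was at 27.3 CPM from 19 control cells and 4.97 CPM from 1 Stat3KO cell, a log2 ratio of -2.25. Bmpr1b was in 28 and 2 cells, at 35.2 and 10 CPM and a log2 ratio of -1.72, or -0.77 in cells of at most 5% mitochondrial. Bmpr2 was in 43.7% (37.1% to 50.5%) and 20.6% (8.7% to 37.9%) of cells, at 143 and 50 CPM and a log2 ratio of -1.497. Bmp4 was the exception, at 51.8 and 130 CPM and a log2 ratio of 1.31, in 15.8% (11.2% to 21.2%) and 35.3% (19.7% to 53.5%) of cells. Of its Stat3KO UMIs 57.8% lay in 3 cells. Its ratio was 0.63 without the 3 richest cells of each library and 0.97 without globin cells. Over all alternatives it ran from 0.62, with clusters in place of gates, to 2.44, in cells thinned to 1000 UMIs. Grem1 was in 9 control cells and in 0 of 34 Stat3KO cells, which allows a share of up to 8.82%. Without cells above 0 for at least 2 markers of another type, 135 and 23 cells, 2 members were past 2-fold in place of 5. The fibroblast list was at 361 and 604 CPM, the chondrocyte list at 314 and 83.5 CPM and the tendon list itself at 7658 and 4499 CPM in tendon-gated cells, and their part was not tested.

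The rest of the pathway was read from a list of 45 further genes. In chondrocytes 38 of them were above the floor, 5 were higher past 2-fold in the Stat3KO library, against 5.8% of all genes tested, and 0 were lower, against 8.09%. These 5 were Fst, the activin and BMP antagonist follistatin, at 6.08 and 52.7 CPM (log2 ratio 2.92), Bambi, a decoy receptor without kinase and itself a BMP target, at 8.46 and 45.4 CPM (2.29), the target gene Hey1 at 9.04 and 25.7 CPM (1.41), the antagonist Sostdc1 at 1.89 and 6.52 CPM (1.38), and the ligand Bmp3 at 4.4 and 11.6 CPM (1.23). Noggin, Nog, was level in chondrocytes at 18.2 and 19.2 CPM. Of the 9 target genes above the floor in chondrocytes 1 was past 2-fold, 6 were higher and 3 lower in the Stat3KO library, and their median log2 ratio was 0.25. Id1 was at 188 and 297 CPM and Id3 at 174 and 308 CPM, log2 ratios of 0.66 and 0.82. The lower genes were Runx2, Atoh8 and Dlx5, with log2 ratios of -0.52, -0.33 and -0.29.

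In the other classes the counts were 5 higher and 1 lower of 27 in osteoblast-gated, 4 and 6 of 26 in tendon-gated, 4 and 1 of 25 in synovial lining, 6 and 2 of 29 in fibroblast-gated, and 4 and 5 of 28 in marrow stromal cells. Over all genes 5.52%, 6.54%, 5.4%, 6.31% and 7.77% were higher and 15.3%, 19.6%, 10.7%, 12.1% and 12.5% were lower, respectively. The 3 ratios of largest size are given for each class, and several of these genes passed the floor only through the library in which they were high. In osteoblast-gated cells they were Eng (-2.59, from 13 control and 2 Stat3KO cells), Smad7 (1.84, from 50 and 63) and Fstl3 (1.82, from 3 and 11). In tendon-gated cells they were Fst (2.98, from 10 and 11), Eng (-2.49, from 27 and 1) and Bmp3 (-2.10, from 11 and 1). They were Bambi (3.57, from 2 and 8), Id3 (1.56, from 86 and 42) and Id1 (1.22, from 31 and 16) in synovial lining cells, Id3 (2.26), Bambi (2.12) and Id1 (1.56) in fibroblast-gated cells, and Bambi (1.88), Twsg1 (-1.31) and Fst (1.30) in marrow stromal cells. Id3, an inhibitor of differentiation and a direct SMAD target, was in 36.3% of control and 84.1% of Stat3KO fibroblast-gated cells, at 150 and 721 CPM. Smad7, the inhibitory SMAD that the pathway induces, was in 26.6% and 61.6% of fibroblast-gated cells, at 99.8 and 296 CPM. Fst in marrow stromal cells was at 192 and 476 CPM, where Grem1 and Chrdl1 were lower in the Stat3KO library.

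**Figure D3:**
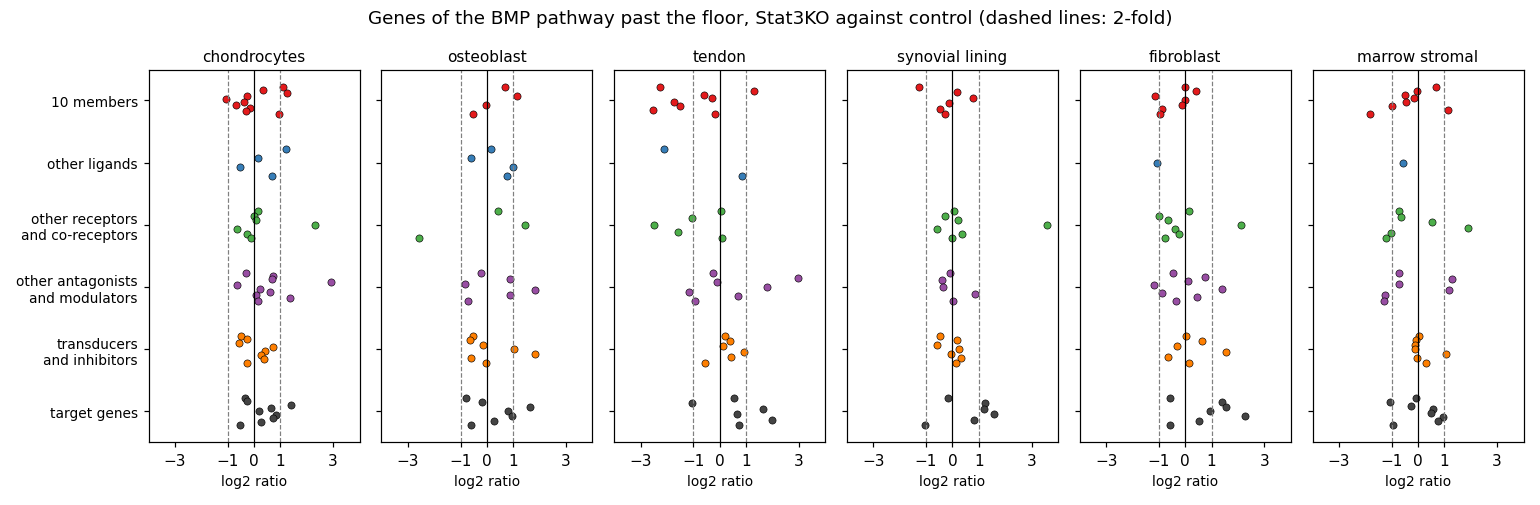
Log2 ratio of Stat3KO to control CPM (horizontal axis) for the 10 members and for 5 lists of further BMP pathway genes in each of the 6 classes; each point is a gene above the floor, 1 library per genotype, and dashed lines mark 2-fold. In chondrocytes 5 of the 38 further genes lie beyond the upper line and 0 beyond the lower one, and in fibroblast-gated cells 3 of the 7 target genes lie beyond the upper line.

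The pattern of the members over the 12 combinations of class and library was compared with that of 5322 genes. The points share libraries and cells, so the correlations are descriptions. The genes most like Chrdl1 were Rbbp7, Adipor2 and Apoe (Pearson r of 0.93, 0.92 and 0.91), and those most like Grem1 were Polk, Hnrnpd and Fyb (0.92, 0.91 and 0.91). Bmp4 was nearest to Ndufs4, Cdkn2aip and H2-T23 (0.99, 0.96 and 0.92). Bmp2 was nearest to Aebp2, Klf13 and Fbxo30 (0.92, 0.89 and 0.89), and Gdf10 to Pabpc1, Cmip and Nid2 (0.91, 0.90 and 0.89). Bmpr1a was nearest to Fstl1, Lamc1 and Nid1 (0.96, 0.95 and 0.94), and Bmpr2 to Kpna3, Dnajb14 and Rcor1 (0.97, 0.96 and 0.96). Gdf5 and Bmpr1b had too few UMIs to be compared.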

How the data were processed

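The authors processed reads in Partek Flow, aligned them to mm10 with STAR 2.7.3a, removed duplicate UMIs and removed ambient RNA with SoupX. Each deposited gene value is the log2 of CPM + 1 of a cell. The deposited total per cell is an estimated count, the mitochondrial and ribosomal columns are a percent of it per the file headers, and a deposited score counts the genes expressed. The study's methods name a limit of 5% mitochondrial counts that the tables do not keep to, and a batch correction whose part in these values is not known. The tables hold slightly fewer cells than the methods state. A text column of the authors marks the Sox9 and Col2a1 cells used as chondrocytes.

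Estimated UMIs were recovered as (2 to the power of the value, minus 1) times the total over 1000000, of which 74.9% in the control and 97.3% in the Stat3KO library lay within 0.1 of a whole number. No count model was used. CPM are the summed UMIs of a gene in a class per 1000000 of that class, and ratios used a pseudocount of 1 CPM. Libraries summed to 2.36e+07 (control) and 7.45e+06 (Stat3KO) estimated UMIs, and the 6 classes held 31% and 58.1% of cells. The members, gene lists and gates were chosen with earlier results of these data known. The 10 members were always named. Of the 45 pathway genes those past 2-fold in chondrocytes and up to 3 per other class were named. Nog, the lower target genes of chondrocytes and the further values of Id1, Id3 and Smad7 were added after their values were seen. Doublets were not called, and cells with at least 2 markers of another type were left out as an alternative, beside changes of pseudocount, floor, centring, cell weighting, cell filters, depth and gate. Clustering used Leiden at resolution 1 on 15 neighbours (scanpy 1.11.5, python-igraph 0.11.9). The ratio was tested on simulated Poisson counts that held no difference between mice. There 97.5% of changed genes in chondrocytes, 89.5% in marrow stromal and 84.5% in tendon-gated cells were past 2-fold, at a set log2 change of 1.5. Of unchanged genes, 1.24%, 5.79% and 11.5% were past 2-fold, respectively. The genes most like Bmp6 in pattern are not reported here. Promoters follow RefSeq on GRCm38.p6, the assembly of mm10. Analysis used Python 3.11.15, numpy 2.4.6, scipy 1.17.1 and pandas 2.3.3.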

Additional observations from a re-analysis of the deposited data

Results flagged for a closer look

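Some genes were past 2-fold in opposite directions in different classes of the same animals. The log2 ratio of Bmp2 was 1.08 in chondrocytes, -2.25 in tendon-gated cells, where a single Stat3KO cell held it, and -1.29 in synovial lining cells. The log2 ratio of Bmp6 was 1.25 in chondrocytes and -1.14 in fibroblast-gated cells, from 11 control and 5 Stat3KO cells. With 1 library per genotype the difference between classes was not tested.

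Most Gdf5 of the control library lay outside the 6 classes, at 65.8% of its estimated UMIs. The level in cells outside these classes and the erythroid gate was 13.1 CPM, against 0.347 CPM in erythroid-gated cells. The 512 unmarked control cells above 0 for Sox9 and Col2a1, each with a globin UMI, held 45.2% of it at 23.3 CPM, from 29 cells, and 277 other control cells gated on chondrocyte markers held 11.2%. In the Stat3KO library the share outside the classes was 0%.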

How the results depend on the processing

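No paired analysis was possible because there is 1 library per genotype. The number of members past 2-fold moved by over 1.5 times as follows, and the cause was not tested. In chondrocytes the 3 members became 0 with a pseudocount of 10 CPM, where 2.61% of all genes passed, and 1 with all Sox9 and Col2a1 cells. In osteoblast-gated cells the 1 member became 0 with a pseudocount of 10 CPM, equal weight per cell, thinning to 1000 UMIs, without the 3 top cells or without cells with 2 markers of another list, and 2 with clusters in place of gates. In tendon-gated cells the 5 became 3 without globin cells or the 3 top cells, 1 with thinning, and 2 with clusters or without cells with 2 other markers. In synovial lining cells the 1 became 3 with no floor or without cells with 2 other markers, 2 with equal weight, and 0 with thinning or clusters. In fibroblast-gated cells the 1 became 0 with a pseudocount of 10 CPM, a floor of 30 UMIs, thinning or without cells with 2 other markers, 2 at no more than 5% mitochondrial, without globin cells or without the 3 top cells, and 3 with clusters. In marrow stromal cells the 3 became 1 with a pseudocount of 10 CPM.

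The other 50 counts stayed within 1.5 times. No ratio of a called member turned sign: of the recomputed log2 ratios 55 moved and 494 did not, and of shares of cells 109 moved and 251 did not. Grem1 in marrow stromal cells was past 2-fold under all 13 alternatives (log2 ratio -2.04 to -1.30) and Bmp6 in chondrocytes under 11 of 12 (0.77 to 1.502), whereas Bmp2 in chondrocytes passed under 8 of 12 (0.60 to 1.56), Bmpr1b under 5 of 12 and Chrdl1 in marrow stromal cells under 8 of 13 (-1.42 to -0.90). A change of floor cannot alter a ratio. Leaving out globin cells cannot alter chondrocytes, of which none held a globin UMI. These repeats of the main ratio are counted above, so the numbers of ratios that stayed or passed include outcomes fixed in advance. Bmpr1b, at 15.7 and 5.99 estimated UMIs in chondrocytes, did not meet the floor of 30. Depth limits the scarce members: 3 counts in Stat3KO tendon-gated cells are 15 CPM.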

Other observations

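Cells gated on mural markers, outside the 6 classes, numbered 73 in the control and 49 in the Stat3KO library. Bmpr2 was at 263 and 138 CPM in them, Bmpr1a at 157 and 125 CPM and Bmp2 at 50 and 111 CPM, the last in 9.59% and 34.7% of cells. No test was made.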
